A study of Mus musculus with 16 samples.

Results

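The genes described here encode the B cell receptor and proteins that act directly with it: Cd79a, Cd79b, Ms4a1, Cd22, Blk, Blnk, Btk and Fcrla. They were selected by symbol, as the probe sets annotated with exactly 1 of these 8 names, after the log2 levels of the same arrays had shown B cell genes far higher under one of the sort labels. This gave 12 of 45101 probe sets, or 8 of the 18194 genes that had a probe set with a single symbol. The difference of these 8 genes between the sort labels is therefore given below as a description without a test. The genotype comparisons were tested, and for genes outside the 8 the label differences were tested as well. The lists of those genes were also chosen with earlier results of these data known, so their label calls are descriptive too.

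Gene expression was measured on 16 Affymetrix mouse arrays, in peritoneal tumour-associated macrophages from C57BL/6N mice, all female. All mice had received 1 mg tamoxifen once by gavage at 8 to 12 weeks of age, and 3 weeks after recombination were given ID8-luc cells, a luciferase-marked mouse ovarian cancer line, which grew in the cavity for 4 weeks. The genotypes were control and RbpjiΔEC, in which Rbpj, through which activated Notch receptors act on DNA, is deleted from endothelial cells by the inducible allele, so that the sorted cells themselves are not the target of the deletion. The Cre driver and the genotype of the controls were not given in the sources used here. Cells positive for CD45, CD11b and F4/80 were sorted as CCR2+ or CCR2-, which with the 2 genotypes made 4 groups of 4 arrays. The labels do not say whether arrays of a group came from separate mice, and if they did not, the p-values below measure a spread that may be technical.

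The B cell receptor is a membrane immunoglobulin held together with a pair of signalling chains, CD79A and CD79B. When antigen clusters the receptor, kinases of the Src family such as BLK phosphorylate these chains, SYK docks on them, and the adaptor BLNK brings BTK to phospholipase C gamma, which opens the calcium and NF-kB arms. CD22 restrains the signal, CD20 (the product of Ms4a1) sits in the membrane beside the receptor, and FCRLA is an intracellular relative of Fc receptors found in B cells. In the peritoneal cavity B cells and resident macrophages are the main leukocytes. Most of these genes are restricted to B cells, whereas Btk is also used by myeloid cells.

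Positions are from the RefSeq annotation of GRCm38.p6. Cd79a lies on chromosome 7 from 24897497 to 24901858 and Cd22 on chromosome 7 from 30865404 to 30880342. Cd79b lies on chromosome 11 from 106311341 to 106314562, Blk on chromosome 14 from 63372837 to 63417187, and Fcrla on chromosome 1 from 170917594 to 170932216. Ms4a1 and Blnk share chromosome 19, at 11249679 to 11266149 and 40928927 to 40994221, and Btk is X-linked, from 134542334 to 134583628.

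Promoter windows of 300 bases around a listed start were found for 5 of the 8 genes in the RefSeq table, and not for Cd79b, Ms4a1 and Blk. The windows of Cd79a and Cd22, a chain and an inhibitor with large label differences, are shown beside those of Blnk and Btk, the adaptor and the kinase with the smaller ones. They run 5′ to 3′ on the gene's own strand in GRCm38.p6, and capitals mark the motif matches named in the next paragraph. The listed starts of Cd79a and Blnk are the outermost starts of those genes, whereas those of Cd22, Btk and Fcrla lie inside the annotated gene.
Cd79a (chr7:24897247-24897546, plus strand): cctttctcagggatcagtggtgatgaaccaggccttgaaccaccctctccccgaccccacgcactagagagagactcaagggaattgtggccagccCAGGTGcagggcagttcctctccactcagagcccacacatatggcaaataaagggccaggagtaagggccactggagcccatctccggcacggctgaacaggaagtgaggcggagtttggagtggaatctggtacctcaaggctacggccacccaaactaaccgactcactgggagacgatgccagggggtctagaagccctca
Cd22 (chr7:30878979-30879278, minus strand): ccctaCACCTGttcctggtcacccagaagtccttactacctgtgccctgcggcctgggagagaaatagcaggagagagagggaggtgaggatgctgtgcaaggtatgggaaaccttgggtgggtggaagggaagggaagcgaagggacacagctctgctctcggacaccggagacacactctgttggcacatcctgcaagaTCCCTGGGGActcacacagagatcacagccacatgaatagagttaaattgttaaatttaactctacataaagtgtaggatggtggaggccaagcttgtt
Blnk (chr19:40994172-40994471, minus strand): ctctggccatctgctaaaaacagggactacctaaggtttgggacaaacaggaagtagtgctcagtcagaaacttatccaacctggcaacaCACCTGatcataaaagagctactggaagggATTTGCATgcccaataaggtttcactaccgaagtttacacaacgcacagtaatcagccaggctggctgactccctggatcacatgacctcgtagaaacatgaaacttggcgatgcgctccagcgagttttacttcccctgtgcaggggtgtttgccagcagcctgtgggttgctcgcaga
Btk (chrX:134583091-134583390, minus strand): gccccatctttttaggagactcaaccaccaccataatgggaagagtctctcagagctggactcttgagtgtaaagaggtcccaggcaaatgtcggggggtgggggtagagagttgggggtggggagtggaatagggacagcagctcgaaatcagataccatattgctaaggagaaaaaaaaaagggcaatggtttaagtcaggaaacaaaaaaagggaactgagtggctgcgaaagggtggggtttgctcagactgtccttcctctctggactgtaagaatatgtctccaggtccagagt

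Motifs of B lineage factors were searched as fixed letters on both strands. The octamer ATGCAAAT, bound by POU factors, occurred in 1.75% of all 27025 promoter windows and, among the 5, in Blnk, on the minus strand at −130 from the start. The palindromic EBF1 motif, TCCC and GGGA with any 2 bases between them, occurred in 0.914% of all windows and in that of Cd22, at −49. The E2A motif CAGGTG was common, in 20.0% of all windows, and matched in Cd79a at −154, Cd22 at −245, Blnk at −160 and Fcrla at −69. The PU.1 motif GAGGAAGT occurred in 3.28% of all windows and in 0 of the 5, and the TATA box letters TATAAA in 14.2% and in Fcrla at 27. The Btk window held none of these letter strings. A match is a string of letters and was not tested as a binding site.

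All levels below are log2 intensities after quantile normalization over the 16 arrays, with means ± SD over 4 arrays. The deposited columns differed in kind between the sort labels. In the 8 CCR2- columns 100% of values were simple fractions, whole once multiplied by some number up to 22 (tolerance 0.001), against 2.58% to 2.91% in the CCR2+ columns. Array means were 481 to 762 and 821 to 827, so the sort label and the way the columns were made cannot be told apart. The bacterial trp control averaged 6.35 to 6.51 per array, and the mean of 3 Y-linked genes, which female mice lack, 6.30 to 6.58. These values mark the level at which a probe set reads no transcript, but single probe sets differ. Kdm5d, 1 of the 3 Y-linked genes, read 6.44 to 7.06. Levels of about 7.06 or below may therefore hold no transcript, and label differences that start there have an uncertain size. Correlations between arrays within a group were 0.971 to 0.993.

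The transcripts of the sorting markers did not all follow the labels. Adgre1, which encodes F4/80, read 13.25 and 13.24 in CCR2+ control and RbpjiΔEC arrays but 9.21 and 9.08 in the CCR2- arrays, and Itgam, which encodes CD11b, read 12.71 and 12.62 against 9.46 and 9.22. The Ccr2 transcript itself had higher means in the arrays labelled CCR2-, at 9.99 ± 1.08 and 8.94 ± 1.32 against 7.99 ± 1.05 and 7.69 ± 0.47. Unlike Adgre1 and Itgam, its labels overlapped in both genotypes. CCR2+ control arrays reached 9.27, above the lowest CCR2- control array at 9.02. The lowest CCR2- RbpjiΔEC array read 7.58, below the highest CCR2+ RbpjiΔEC array at 8.23. Of 12 markers of large peritoneal macrophages, 12 were higher in the CCR2+ arrays by limma, with array means of 12.63 to 12.78 against 8.10 to 8.72. Of 13 further B lineage markers, which leave out the 8 genes, 13 were lower, with array means of 7.88 to 8.06 against 11.25 to 11.45. Over all genes 19.4% were called higher and 21.4% lower in control mice, and 18.1% and 21% in RbpjiΔEC mice. Both lists were chosen with earlier results of these data known, so the calls describe the lists and are no independent test. The part of cell composition in the label differences was not tested, and fewer B cells and less RNA per B cell cannot be told apart in these bulk samples. On these lists the CCR2+ arrays carried macrophage transcripts at high levels, and the CCR2- arrays carried B cell transcripts at high levels.

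The 2 signalling chains of the receptor were high in every CCR2- array and low in every CCR2+ array. Cd79a read 7.76, 7.79, 7.35 and 7.70 in CCR2+ control arrays 1 to 4 and 7.75, 7.84, 7.71 and 7.61 in CCR2+ RbpjiΔEC arrays. In the CCR2- arrays it read 12.53, 12.93, 12.75 and 12.91 in control and 12.76, 12.81, 12.93 and 12.81 in RbpjiΔEC mice. The labels were separated by a wide gap and the genotypes overlapped, with CCR2- control 1 the lowest of the 8 CCR2- arrays. The CCR2- mean was 35.0-fold the CCR2+ mean in control mice and 34.3-fold in RbpjiΔEC mice. The Cd79a mean in CCR2+ control arrays stood 1.13 above the highest trp probe set.

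Cd79b followed the same pattern. Its levels were 7.30, 7.46, 7.05 and 7.53 in CCR2+ control arrays and 7.24, 7.68, 7.28 and 7.25 in CCR2+ RbpjiΔEC arrays. In CCR2- arrays they were 12.49, 12.99, 12.86 and 13.03 in control and 12.85, 12.91, 13.01 and 12.88 in RbpjiΔEC mice. As for Cd79a, CCR2- control 1 was the lowest CCR2- array. The difference of CCR2+ minus CCR2- was −5.51 in control and −5.55 in RbpjiΔEC mice.

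After quantile normalization Ms4a1, which encodes CD20, varied little among CCR2- arrays and more among CCR2+ control arrays. Its brighter probe set read 13.53, 13.59, 13.58 and 13.52 in CCR2- control and 13.56, 13.59, 13.52 and 13.62 in CCR2- RbpjiΔEC arrays. In CCR2+ control arrays it read 6.52, 7.66, 6.75 and 7.45, and in CCR2+ RbpjiΔEC arrays 7.08, 6.90, 7.12 and 6.99. CCR2+ control 2 and 4 were the high ones, and the second probe set showed the same arrays high, with 6.68, 7.34, 6.63 and 7.54. The SD of the brighter probe set was 0.55 in CCR2+ control arrays and 0.04 in CCR2- control arrays. Its deposited intensities in CCR2- control arrays ran from 7878 to 13389. CCR2- control 2 and CCR2- RbpjiΔEC 2, deposited at 13389 and 10232, had the same normalized level. The small SD therefore holds for the normalized values, and the part of the scaling in it was not tested. The label difference was −6.46 in control and −6.55 in RbpjiΔEC mice, and −5.49 and −5.57 on the second probe set. On the brighter probe set 1 CCR2+ control array was at or below the highest trp probe set. With that array taken at the trp level the control difference of this probe set was 6.45 in size. That is no bound for the gene, since the second probe set gave −5.49. The CCR2+ means of the brighter probe set, 7.09 and 7.02, lay near the highest level of Kdm5d, 7.06. The size of its label difference is therefore uncertain.

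Cd22, the inhibitory lectin of B cells, had 2 probe sets. The one used for the gene read 6.92, 6.64, 6.79 and 6.68 in CCR2+ control and 6.75, 6.64, 6.66 and 6.75 in CCR2+ RbpjiΔEC arrays. In CCR2- arrays it read 12.18, 12.69, 12.42 and 12.66 in control and 12.58, 12.19, 12.68 and 12.57 in RbpjiΔEC mice. The genotypes overlapped, with the low CCR2- arrays being control 1 and RbpjiΔEC 2. The label difference was −5.73 in control and −5.81 in RbpjiΔEC mice, and −5.86 and −5.91 on the other probe set, which in CCR2+ arrays of each genotype was at or below the highest trp probe set in 2 of 4. The probe sets differed within arrays, with 6.92 and 6.50 in CCR2+ control 1 and 12.42 and 12.69 in CCR2- control 3. The CCR2+ control mean of the first stood 0.24 above the highest trp probe set, close to the floor.

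Blk, a Src family kinase of B cells, read 7.25, 7.18, 6.91 and 6.95 in CCR2+ control and 7.12, 6.81, 6.63 and 7.18 in CCR2+ RbpjiΔEC arrays. The CCR2- levels were 12.97, 12.84, 12.89 and 12.95 in control and 13.03, 12.97, 12.79 and 12.70 in RbpjiΔEC mice. The labels did not overlap and the genotypes did. The label difference was −5.84 in control mice, or 57.5-fold, and −5.94 in RbpjiΔEC mice, or 61.5-fold. The CCR2+ means, 7.07 and 6.93, lay near the highest level of Kdm5d, 7.06, so the size of these folds is uncertain.

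Fcrla had 3 probe sets. The brightest read 6.39, 6.55, 6.50 and 6.58 in CCR2+ control and 6.41, 6.25, 6.46 and 6.49 in CCR2+ RbpjiΔEC arrays. Its means of 6.51 ± 0.09 and 6.40 ± 0.11 (n = 4 each) were no higher than those of the highest trp probe set, 6.52 and 6.53. In single arrays it was at or below that probe set in 2 of 4 control and 4 of 4 RbpjiΔEC arrays. In CCR2- arrays the brightest probe set read 13.39, 13.00, 13.06 and 12.73 in control and 13.10, 13.03, 12.90 and 12.97 in RbpjiΔEC mice. On this probe set, after quantile normalization, CCR2- arrays were thus at least 89.7-fold higher in control and at least 88.7-fold in RbpjiΔEC mice. Each CCR2+ array was taken at the higher of its own level and the highest trp probe set. A second probe set, with CCR2+ means of 7.16 and 7.20, gave a difference of −4.71 in both genotypes, or 26.3-fold and 26.1-fold. The bounds therefore hold for single probe sets and not for the gene. The third was at or below the highest trp probe set in 1 of 4 CCR2+ control and 4 of 4 CCR2+ RbpjiΔEC arrays, and by the same rule CCR2- arrays were higher by at least 4.91 in control and at least 5.07 in RbpjiΔEC mice, on the log2 scale.

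**Figure D1:**
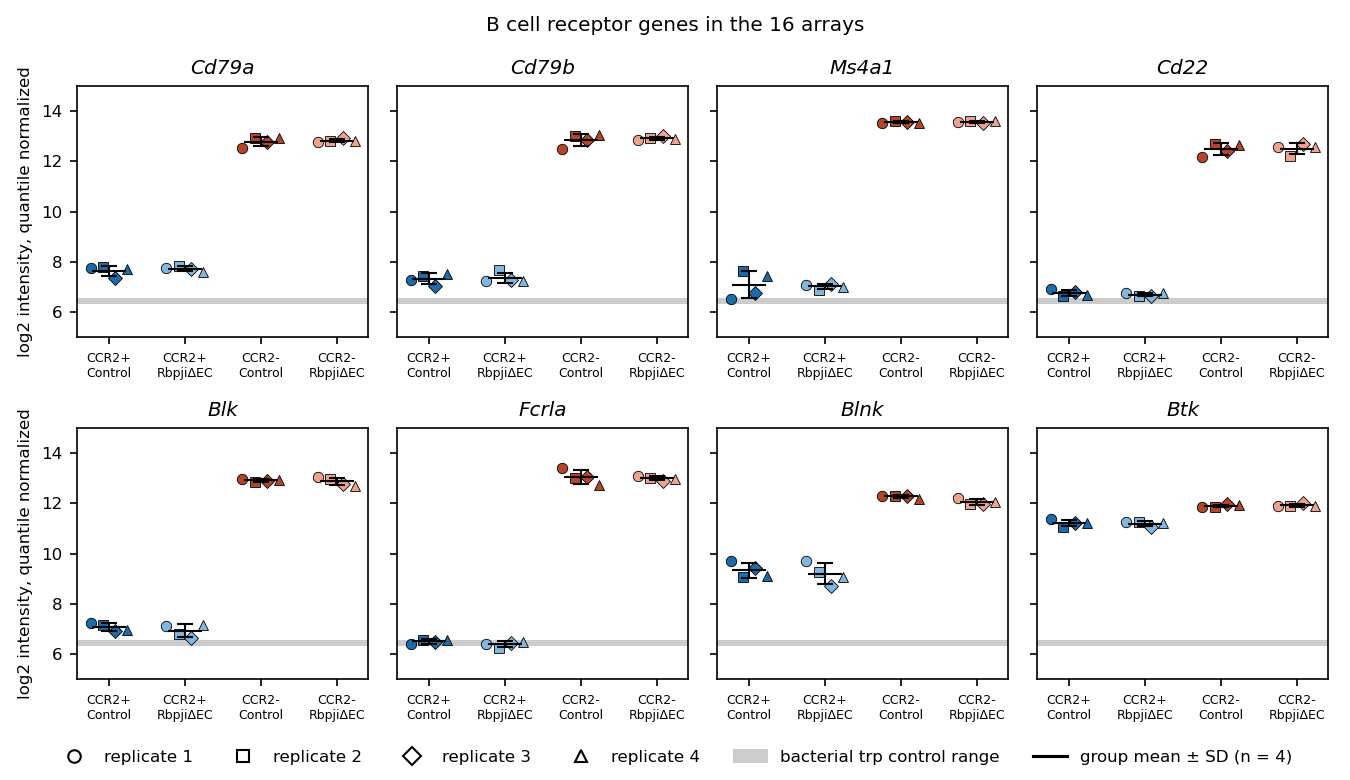
Log2 quantile-normalized intensity (vertical axes) of each of the 8 genes in the 16 arrays, by group, with 1 point per array, the mean with its SD over 4 arrays, and the range of the bacterial trp control in grey. Cd79a, Cd79b, Ms4a1, Cd22, Blk and Fcrla sit near or little above the trp level in the CCR2+ groups and near 12 to 14 in the CCR2- groups, Blnk is intermediate in the CCR2+ groups, and the Btk groups lie close together.

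Blnk and Btk, which act downstream of the chains, differed less between the labels than the other 6 genes. Blnk read 9.72, 9.09, 9.43 and 9.11 in CCR2+ control and 9.71, 9.28, 8.71 and 9.07 in CCR2+ RbpjiΔEC arrays. Its CCR2- levels were 12.31, 12.31, 12.28 and 12.19 in control and 12.22, 11.96, 11.98 and 12.05 in RbpjiΔEC mice. The label difference was −2.94 in control mice, or 7.66-fold, and −2.86 in RbpjiΔEC mice, or 7.26-fold. The CCR2+ control mean of Blnk stood 2.81 above the highest trp probe set, so the adaptor was measurable in the CCR2+ arrays.

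Btk was high in all 16 arrays. It read 11.38, 11.07, 11.20 and 11.20 in CCR2+ control and 11.26, 11.24, 11.07 and 11.22 in CCR2+ RbpjiΔEC arrays. In CCR2- arrays it read 11.87, 11.86, 11.96 and 11.93 in control and 11.90, 11.89, 12.02 and 11.91 in RbpjiΔEC mice. The labels were apart by −0.69 in control and −0.73 in RbpjiΔEC mice, 1.62-fold and 1.66-fold. That separation depended on the scaling. With median centring the differences were −0.17 and −0.35 and the labels overlapped, and without normalization they were −0.11 and −0.07 and overlapped. The median of all genes was −0.03 in both mice after quantile normalization.

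Across the 8 genes the median label difference was −5.62 in control and −5.68 in RbpjiΔEC mice, against −0.03 for all genes in each. All 8 were lower in every CCR2+ array than in any CCR2- array, in both genotypes, where 19.5% of all genes showed that separation in control mice and 20.7% in RbpjiΔEC mice. With median centring or without normalization it was 7 of 8, Btk being the exception. The share of all genes was then 12.8% in control and 21.4% in RbpjiΔEC mice with median centring, and 7.53% and 7.58% without normalization. The genes were selected on this difference, so the counts describe the choice.

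**Figure D2:**
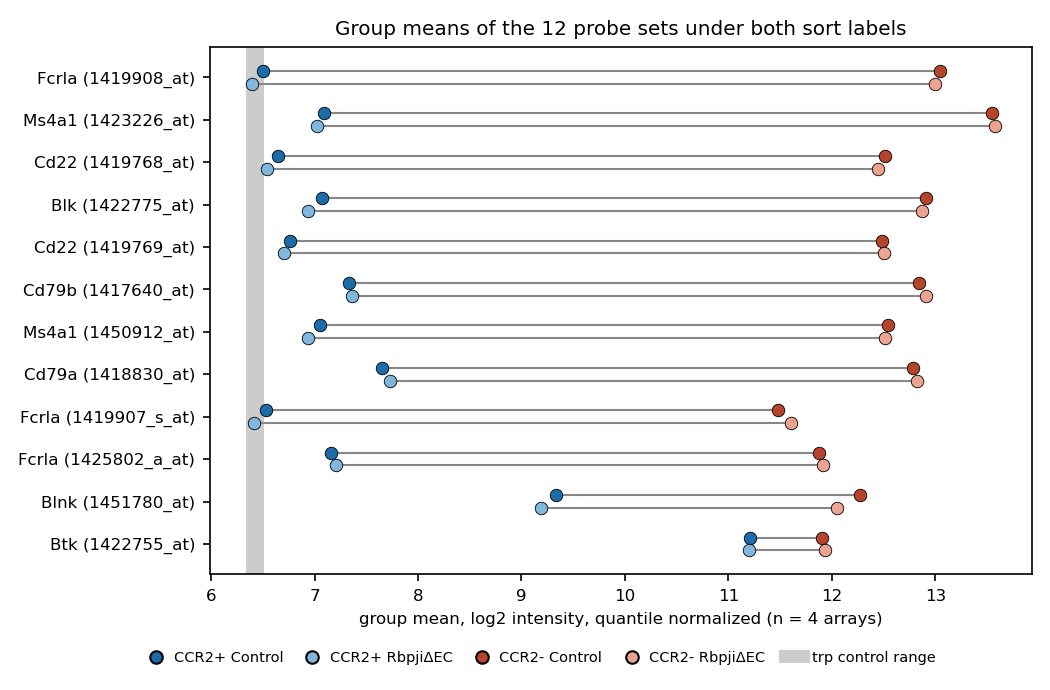
Group means of the 12 probe sets (horizontal axis, log2 quantile-normalized intensity, n = 4 arrays) in CCR2+ and CCR2- arrays of both genotypes, with a line per probe set and genotype and the range of the trp control in grey. The genotypes of a label nearly coincide, the gap between the labels is narrowest for Btk, at −0.69 in control mice, and next for Blnk, at −2.94.

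The genotype comparison asks whether loss of endothelial Rbpj moved these transcripts within a sorted population. No gene of the 8 passed the test in the CCR2- arrays, where B cell transcripts were high. Limma called 0 of the 8 genes at adjusted p under 0.05, and 0 had an unadjusted p under 0.05, where 2.14% of all genes did. Of all 18194 genes 0 passed (0%), and the smallest adjusted p was 0.150. RbpjiΔEC minus control was 0.05 for Cd79a, 0.07 for Cd79b, 0.02 each for Ms4a1, Cd22 and Btk, −0.04 for Blk and −0.05 for Fcrla. The median of the 8 was 0.02, with 5 positive and 3 negative.

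Blnk had the difference farthest from 0 in the CCR2- arrays, −0.22 (SE 0.17, 95% interval −0.59 to 0.14), with a limma adjusted p of 1.00. Its RbpjiΔEC mean was 12.05 ± 0.12 and its control mean 12.28 ± 0.06 (SD, n = 4 each), and a single RbpjiΔEC array, number 1 at 12.22, lay within the control range. The exact permutation test gave p = 0.0571, where 4 against 4 arrays can reach 0.0286. The spread between all 4 groups is shared in the limma fit and is larger in the CCR2+ arrays, which have SDs of 0.30 and 0.42.

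In the CCR2+ arrays 0 of the 8 genes were called and 0 had an unadjusted p under 0.05, where 4.56% of all genes did. Again 0 of 18194 genes passed (0%), with a smallest adjusted p of 0.0835. The differences were −0.14 for Blk and Blnk, −0.11 for Fcrla, −0.07 for Ms4a1, −0.06 for Cd22, −0.01 for Btk, 0.03 for Cd79b and 0.07 for Cd79a. Their median was −0.06, with 6 negative and 2 positive, and limma adjusted p-values ran from 0.966 to 0.985. The CCR2+ control means of the 6 genes other than Blnk and Btk lay −0.02 to 1.13 from the highest trp probe set, so a change in these transcripts may not be visible there.

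The interaction of genotype and sort label, which tests whether the genotype difference was unequal in the 2 labels, called 0 of the 8 genes and 0% of all genes. It gave an unadjusted p under 0.05 for 0 of the 8 and for 3.05% of all genes, with member estimates from −0.10 to 0.08 and limma adjusted p = 0.999. Fitted on all 34958 probe sets with 1 symbol, 0 of the 12 probe sets were called in any of the 3 comparisons, and among all probe sets 2 were called in CCR2+ arrays and 0 in the others. In CCR2- arrays the Cd22 estimate was 0.02 on one probe set and −0.06 on the other. The 95% intervals, each for a single gene, show how large a change these data still allow. For Btk in CCR2- arrays the interval ran from −0.14 to 0.19, for Cd79a from −0.18 to 0.27, and for Ms4a1 from −0.36 to 0.40. A p-value that misses the threshold does not show that the genotypes are alike.

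**Figure D3:**
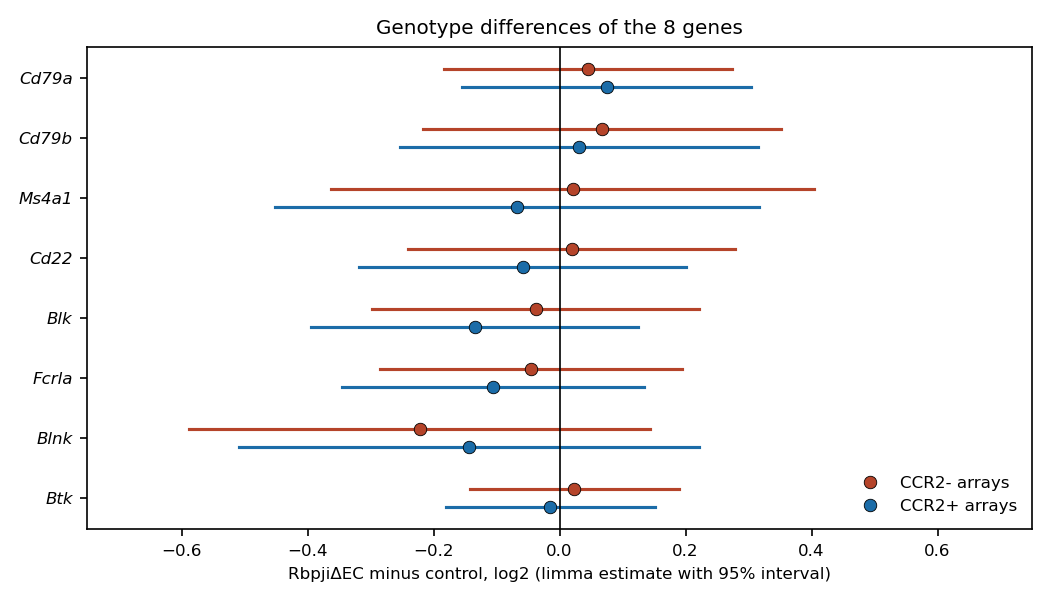
Limma estimates of RbpjiΔEC minus control (horizontal axis, log2, with 95% intervals) for the 8 genes in CCR2- and CCR2+ arrays, 4 against 4 arrays each. Every interval includes 0, and the estimates lie between −0.22 and 0.07.

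Probe sets of 1 gene did not always agree among the CCR2- arrays. The brightest Fcrla probe set was highest in CCR2- control 1, at 13.39, and lowest in control 4, at 12.73. The other 2 Fcrla probe sets ran the opposite way over the control arrays, one with 11.34, 12.05, 11.82 and 12.29 and the other with 11.27, 11.59, 11.46 and 11.62. Cd79b also had its lowest value in control 1, at 12.49, and its highest in control 4, at 13.03. CCR2- control 1 was the lowest control array for 7 of the 12 probe sets and the highest for 2. These orders hold for the normalized values. The deposited intensities of the brightest Fcrla probe set in CCR2- control arrays 1 to 4 were 7111, 8505, 6008 and 6698. Those of the other 2 were 1700, 4376, 2609 and 4852, and 1614, 3215, 2067 and 3021. The part of the scaling in the orders was not tested. Normalized Fcrla differences within a group therefore depended on the probe set, whereas its label difference had the same sign on all 3.

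**Figure D4:**
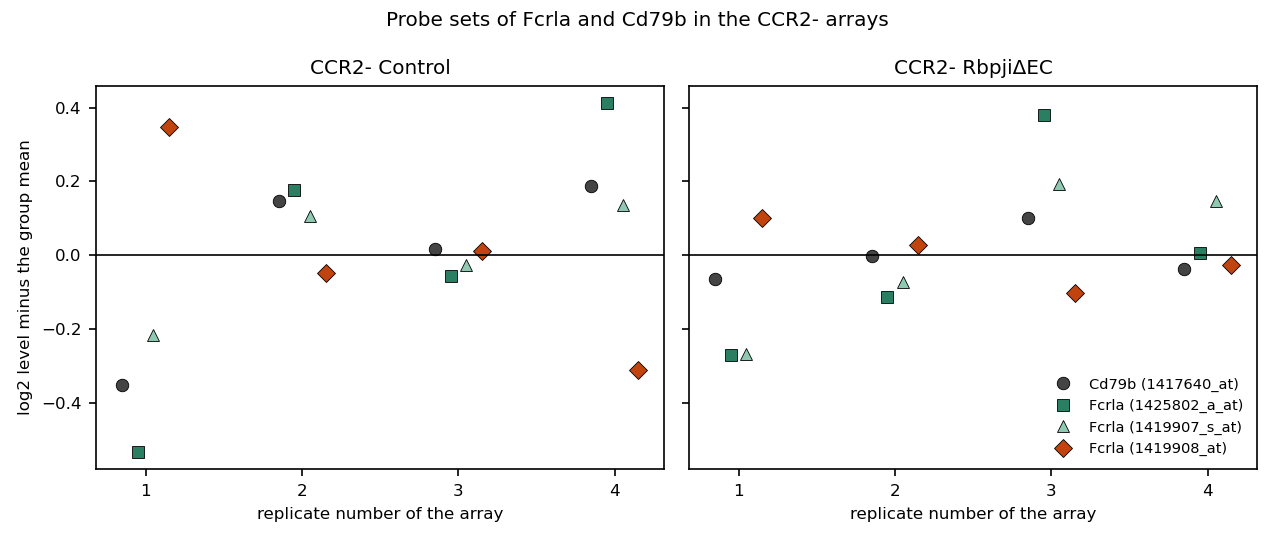
Log2 level minus the group mean (vertical axis) of the 3 Fcrla probe sets and Cd79b in the 4 CCR2- arrays of each genotype (horizontal axis, replicate number, which carries no order). On this quantile-normalized scale the brightest Fcrla probe set is highest in control array 1 and lowest in control array 4. The other 3 probe sets run the opposite way.

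Other genes of the pathway were taken from 5 lists of receptor chains and coreceptor, proximal kinases, adaptors and enzymes, downstream arms, and inhibitors. Of 47 listed genes outside the 8, 40 were measured. In control mice limma called 21 lower and 6 higher in CCR2+ arrays, against 21.4% of all genes lower and 19.4% higher. In RbpjiΔEC mice it called 24 lower and 5 higher, against 21% and 18.1%. The median differences were −0.62 and −0.60. The counts depended on the scaling: with median centring they were 13 lower and 9 higher in control and 17 lower and 9 higher in RbpjiΔEC mice. Without normalization they were 13 and 9 in control and 12 and 11 in RbpjiΔEC mice. Among all called genes the share higher in CCR2+ arrays was 47.6% in control and 46.3% in RbpjiΔEC mice, 62.8% and 55.4% with median centring, and 72.7% and 82.7% without normalization.

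The heavy chain gene Ighm had the largest receptor difference, −5.19 in control and −4.83 in RbpjiΔEC mice, and the complement receptor gene Cr2 followed at −2.72 and −2.94. Cd81, a tetraspanin gene, was higher in CCR2+ arrays, by 0.26 (SE 0.08, limma adjusted p = 0.0124) and 0.23. Among kinases Syk differed by −1.27 and −1.37 and Csk, which restrains Src kinases, by −0.85 and −1.01, whereas Fgr, a Src kinase of myeloid cells, was higher by 1.37 and 1.60. The scaffold gene Bank1 differed by −1.97 and −1.91, and the phosphoinositide kinase subunit gene Pik3r1 by −0.95 and −1.08. Vav3, an exchange factor gene, ran the other way, at 2.23 and 2.60. Each of these genes kept its sign under median centring and without normalization, but the smaller differences moved. Cd81 read 0.81 and 0.62 with median centring and 0.87 and 0.91 without normalization. Without normalization Syk read −0.68 and −0.76, Csk −0.30 and −0.37, and Pik3r1 −0.36 and −0.43.

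In the downstream arms Malt1, a protease of the NF-kB arm, differed by −2.97 and −2.86 and Nfatc1, a calcium-responsive transcription factor, by −1.89 and −1.64. Of 10 measured genes there, 6 were lower in control mice and 8 in RbpjiΔEC mice, against 21.4% and 21% of all genes. Called higher were 0, against 19.4% and 18.1% of all genes. The 11 inhibitors divided, with 5 lower and 3 higher in control mice, against 21.4% and 19.4% of all genes. Siglecg, a B cell lectin related to Cd22, differed by −4.90 and −4.83 and the phosphatase gene Ptpn22 by −3.70 and −3.81. Pirb, an inhibitory receptor of myeloid cells and B cells, was higher by 1.65 and 1.55, and Fcgr2b, the inhibitory Fc receptor, by 0.39 and 0.34. These genes kept their sign under both other scalings, with Fcgr2b at 0.91 and 0.67 with median centring and 0.97 and 0.96 without normalization. Nfatc1 read −1.47 and −1.08 without normalization.

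Relatives of the 8 genes differed in direction among themselves. Of 18 listed relatives 14 were measured, and in control mice limma called 3 lower and 6 higher in CCR2+ arrays, against 21.4% of all genes lower and 19.4% higher. In RbpjiΔEC mice it called 2 lower and 5 higher, against 21% and 18.1% of all genes. Lcp2 encodes SLP-76, the adaptor of T cells and myeloid cells related to BLNK, and it was higher by 3.57 (SE 0.19) in control and 3.65 in RbpjiΔEC mice, against −2.94 and −2.86 for Blnk. Cd33, a myeloid lectin related to Cd22, was higher by 3.94 (SE 0.17) and 4.23. Fcrl1, a B cell relative of Fcrla, was lower, at −3.58 and −3.54, and so was Ms4a6c, a relative of Ms4a1, at −1.33 and −0.96 (−0.80 and −0.32 without normalization). Other relatives differed less. Siglech, also related to Cd22, read −0.29 (limma adjusted p = 0.0122) and −0.14, but −0.26 and 0.13 without normalization. Clnk, related to Blnk, read −0.10 and −0.12 without a call. The Clnk means of 6.38 to 6.54 were in each group below the mean of the highest trp probe set, 6.52 to 6.60. Clnk may therefore hold no transcript in any group. Siglech and Clnk were named after their values were seen.

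Genotype calls among the 40 pathway genes were 0 in CCR2- and 0 in CCR2+ arrays. Cblb, a ubiquitin ligase gene that restrains receptor signals, had the largest estimate in the CCR2+ arrays. It read 10.27 ± 0.31 in control and 11.11 ± 0.46 in RbpjiΔEC arrays (n = 4 each). The estimate was 0.84 (SE 0.20) with a limma adjusted p of 0.619. The median genotype difference of the 40 was −0.05 in CCR2+ arrays.

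**Figure D5:**
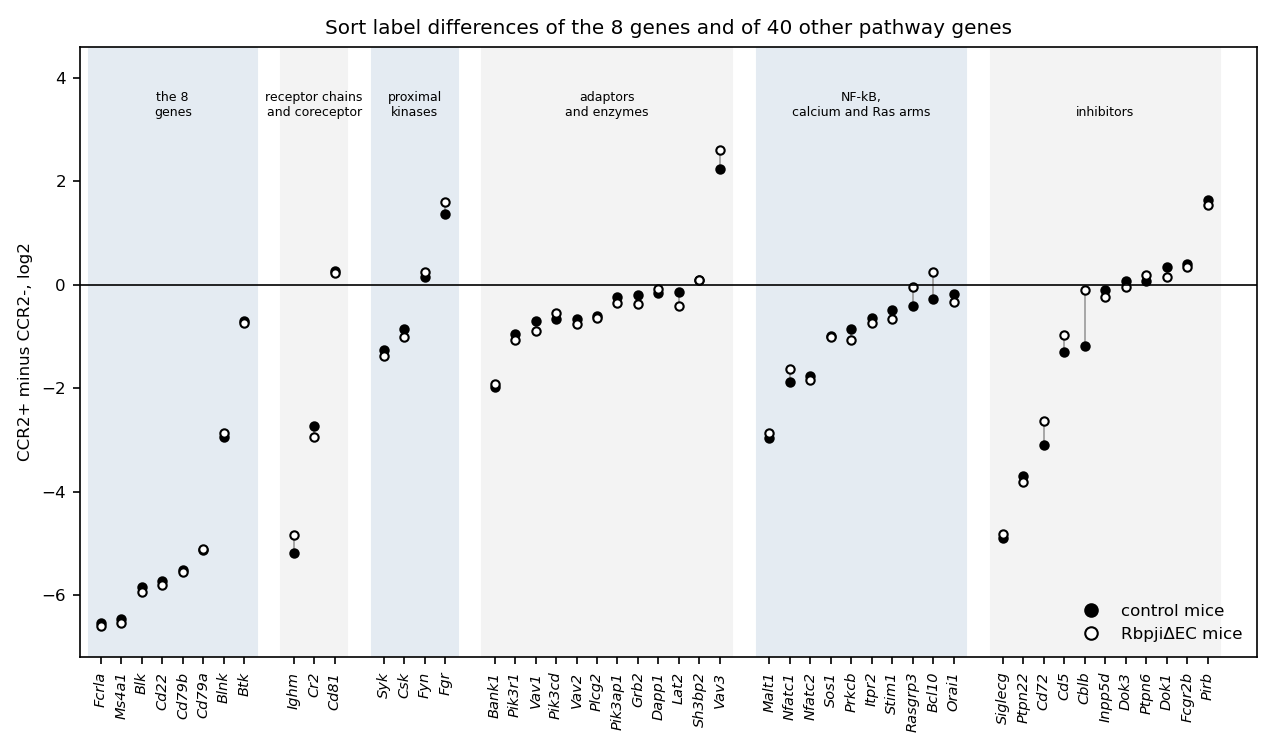
CCR2+ minus CCR2- difference (vertical axis, log2) of the 8 genes and of 40 other pathway genes by list, in control mice (filled) and RbpjiΔEC mice (open). Among the 8 genes Fcrla lies lowest, at −6.54 and −6.60, and Btk highest, at −0.69 and −0.73. The Fcrla points are differences of means, with CCR2+ means no higher than the highest trp probe set. Vav3 at 2.23 and 2.60 is the highest point.

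The genes with the nearest profiles were found by the root mean square difference in log2 units over the 16 arrays, after each profile was centred on its own mean. Napsa, an aspartic protease gene, was nearest to Cd79a, at 0.13, followed by Mzb1 at 0.14 and Spib at 0.15, where the median over all genes was 2.55. Cd2 was nearest to Cd79b, at 0.18, and to Cd22, at 0.19. Ikzf3, a lymphoid zinc finger gene, was nearest to Blk at 0.16, and the light chain transcript Igk-V21 to Fcrla at 0.18 and to Ms4a1 at 0.29. Blnk was nearest to Sesn3 at 0.18, and Btk to Sys1 at 0.09, although for Btk the median over all genes was only 0.40. These distances follow the difference between the labels, which all the profiles share.

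Among the 8 genes Cd79a and Cd79b lay 0.23 apart on this measure, Cd22 and Blk 0.23 and Ms4a1 and Fcrla 0.24. Blnk lay 1.11 from Btk and 1.15 from Cd79a. Btk lay 2.21 to 2.93 from the other 6. The 6 other genes lay at most 0.77 from each other, the value for Cd79a and Fcrla.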

How the data were processed

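Total RNA of sorted peritoneal cells was measured on 16 Affymetrix mouse arrays, 4 in each of 4 groups taken from the sample titles. The deposited values are linear probe set intensities of 45101 probe sets. The authors' scaling and summary method was not given in the sources used here, and neither were detection calls or scan dates. Batches were therefore not tested, and precision is limited by the number of arrays. The intensities were log2 transformed and quantile normalized over all arrays, with no filter. Probe sets were named from the platform annotation: 34958 carried 1 symbol, 932 several and 9211 none, and the last 2 kinds were left out. For a gene with several probe sets the one with the highest mean was used, giving 18194 genes.

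Genotype differences within each label and their interaction were tested two-sided in R 4.3.3 by limma 3.58.1 (1 mean per group, shared spread). P-values were adjusted by Benjamini-Hochberg over every gene, at a threshold of 0.05. The same fit gave the label differences of genes outside the 8. The method was tested on simulated data. Promoter letters were read from RefSeq.

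The 8 genes and all lists were chosen with earlier results of these data known. The text names the 8 genes and, by the size of the difference, at most 2 genes per direction in each list. Siglech and Clnk were named outside this rule, after their values were seen. Also named are the 3 nearest profiles of each gene, or part of them. The gate and label genes open to naming were Ptprc, Itgam, Adgre1, Ccr2, Rbpj and Gata6, of which part were used. Replicate numbers were not used to pair arrays, since the labels do not say what they mark and not every same-numbered pair deviated together. Alternatives were other scalings, an offset, a filter on dim genes, other rules for probe sets, other limma settings, a replicate block and leaving out each array.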

Additional observations from a re-analysis of the deposited data

Results flagged for a closer look

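Cd79b read 7.68 in CCR2+ RbpjiΔEC 2 and 7.24 to 7.28 in the other 3 arrays of that group, so that the gap to the nearest array was 0.912 of the whole range of the group, above the critical value for 4 arrays. It was the 1 case among 48 groups of 4 arrays examined, where chance marks about 1 in 20.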

How the results depend on the processing

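The 8 genes had 0 genotype calls under every alternative run. Over all genes, CCR2+ arrays gave 0 calls as reported, 1 with genes above the lowest tercile, 2 with the mean of all probe sets, 2 with the lowest-mean probe set (chosen after seeing the data) and 1 with array weights. Leaving out 1 array gave 0 to 2 calls in CCR2+ and 0 to 1 in CCR2- arrays. It gave 1 without CCR2+ control 2 or CCR2+ RbpjiΔEC 3, 2 without CCR2+ RbpjiΔEC 2, and 1 without CCR2- control 2 or CCR2- RbpjiΔEC 4. The causes were not tested. With the replicate number as a block, CCR2+ arrays gave 1 call. CCR2- arrays and the interaction gave 0. Whether the numbers pair samples is not given in the labels. Deviations of same-numbered arrays correlated at −0.38 to 0.15 between genotypes in CCR2+ and −0.10 to 0.19 in CCR2- arrays, and at −0.03 to 0.40 between labels in control and 0.04 to 0.24 in RbpjiΔEC mice. Best with their own number were 0, 1, 3 and 3 of 4, a hint from the data for the sort labels. The Blnk genotype difference in CCR2- arrays stayed between −0.29 and −0.11 over 19 settings. All 8 label differences kept their sign over 14 settings in both genotypes, with Btk from −0.75 to −0.11 in control and −0.75 to −0.07 in RbpjiΔEC mice. Levels near the trp control limit what can be seen in the CCR2+ arrays.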

Other observations

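Markers of other cells that the gate could hold were also examined, with calls made on quantile-normalized values. Of 8 measured T and NK cell markers limma called 2 lower in CCR2+ arrays of control mice, with Cd2 at −5.58 and Cd3g at −1.17, against 21.4% of all genes lower. The list median was −0.20 in control and −0.05 in RbpjiΔEC mice. Its array means were 6.90 to 7.13 in CCR2+ and 7.81 to 8.04 in CCR2- arrays, a gap to which Cd2, also near Cd79b and Cd22 in profile, gave the most. Of 7 plasma cell markers 4 were lower and 1 higher in control mice, against 21.4% and 19.4% of all genes. Mzb1 read −5.01 and Jchain, the joining chain gene, −2.72. In the other direction Tnfrsf17 was called higher, at 0.36, and Xbp1 read 0.48 without a call. In RbpjiΔEC mice 4 were lower and 2 higher, against 21% and 18.1% of all genes. The higher ones were Tnfrsf17 at 0.30 and Xbp1 at 0.67. Without normalization Xbp1 read 1.07 in control and 1.35 in RbpjiΔEC mice. The dendritic cell list had 8 measured genes, 6 of them lower and 1 higher in control mice, against 21.4% and 19.4% of all genes. Among them were Itgax, which encodes CD11c, at −2.56 and Bst2 at 0.61. Of 7 tumour and mesothelial markers 2 were lower in control mice, against 21.4% of all genes. They were Epcam, by a difference of −1.34, and Krt8, by −0.94. The genotype fits called 0 genes of any of these lists.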
